A study of Mus musculus with 40 samples.

Results

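*BC048679* is a protein-coding mouse gene of chromosome 7 (Entrez 210321), for which RefSeq lists 3 transcripts. It is named after a cDNA clone, and no function is given to it here. It was selected on the measured diet difference in these same arrays, where it had the largest increase on a high fat diet of the called genes, and it corresponds to 1 of the 16475 probe sets of the value table. All its values on the effect of the diet are therefore given as a description without a test. The comparison of the muscles, and the relation between the muscles of a mouse, were not used to choose it.

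Affymetrix mouse genome arrays were run on 40 muscle samples of 20 male mice, so that each muscle of a mouse has its own array. Samples fell into 4 groups of 10: gastrocnemius of mice on a high fat diet (HFD), gastrocnemius of mice on a low fat diet (LFD), quadriceps of HFD mice and quadriceps of LFD mice. The strain is C56BL/6J in the sample labels and C57BL/6J in the methods of the study. All mice, HFD and LFD alike, had eaten the low fat run-in diet for 3 weeks from an age of 9 weeks, were then fed one of the diets for 8 weeks and were dissected at 20 weeks of age after a fast. Each sample is bulk RNA of 1 muscle of 1 mouse with all the cell types in it, and the extraction protocol names only the quadriceps for all 40 arrays, so that the muscle was read from the title, source and tissue labels of a sample, which never contradict each other.

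Skeletal muscle takes up fatty acids from the blood, stores part of them in lipid droplets and oxidizes the rest in mitochondria and peroxisomes. Nuclear receptors of the PPAR family bind fatty acids and switch on the genes for these steps, and more dietary fat is known to raise such genes in muscle. Both the gastrocnemius and the quadriceps of the mouse are mostly made of fast fibers. The gastrocnemius holds a deep region rich in slow oxidative fibers. *BC048679* belongs to none of the gene lists used below for these processes.

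The 250 bases before the annotated start of *BC048679* are shown because the gene varied together with genes of fatty acid oxidation, many of which are known PPAR targets. The sequence comes from RefSeq (GRCm38.p6, chr7:81498331-81498580, minus strand, written in the direction of transcription), and the capitals mark GGGTCA, a variant of the nuclear receptor half-site that was added to the search after this window had been read.
BC048679 upstream: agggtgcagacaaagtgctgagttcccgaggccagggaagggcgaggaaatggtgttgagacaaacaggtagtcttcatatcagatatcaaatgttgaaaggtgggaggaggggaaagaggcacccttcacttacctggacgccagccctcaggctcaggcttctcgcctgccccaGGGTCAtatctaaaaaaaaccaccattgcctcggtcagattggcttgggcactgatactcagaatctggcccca
The start lies just after the last base printed, and the capitals begin at position -74. Of 9 motifs searched on both strands, 3 had a match, among them GGGTCA, so that its late addition in part sets this count. GGGTCA is also found in 11.6% of the 32851 windows of this length in the table. The half-site AGGTCA had no match here and occurs in 14.0% of windows. The PPAR:RXR element, AGGNCA repeated after any single base (0.3% of windows), the ERR half-site TNAAGGTCA (1.1%), the TATA motif TATAAA (12.4%), the GC box GGGCGG (32.7%) and the NRF1 motif, GCGCA followed by TGCGC (0.8%), had none either. One E-box CANNTG (66.2%) and one CCAAT box (33.8%), which lies on the opposite strand at -36, were present. TNAAGGTCA contains AGGTCA, and the PPAR:RXR element can overlap it.

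The arrays themselves were alike. The median signal intensity of an array lay between 8.8 and 9.4, and 38.4% to 39.5% of its probe sets had a signal intensity over 20. Probe sets with a mean over 20 across all arrays were tested, which left 6479, *BC048679* among them. Precision is set by the 10 arrays of a group. The summed signal intensity of 11 fast fiber markers (*Myh4*, *Tnnt3*, *Pvalb* and others) was high in all 4 groups, between 166075 and 183018. Of 11 slow fiber markers, 10 were higher in the gastrocnemius in the comparison of the muscles of HFD mice and 8 in that of LFD mice (limma, FDR < 0.05, met by 3.32% and 2.69% of all tested probe sets in HFD and LFD mice).

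*BC048679* was well above the array medians in each sample. In the gastrocnemius, the signal intensity of HFD mice had a lowest value of 195.6, a median of 257.45 and a highest value of 366.2, with a mean of 272.8 ± 55.1 (SD, n = 10). In the gastrocnemius of LFD mice these values were 82.1, 106.45 and 216.1, with a mean of 117.4 ± 39.1 (SD, n = 10). Of the 10 HFD mice, 9 lay above the highest LFD mouse, and only the lowest HFD mouse (158, 195.6) fell below the highest LFD mouse (148, 216.1). In the quadriceps, HFD mice had a lowest value of 279.1, a median of 389.15 and a highest value of 619.2, with a mean of 401.6 ± 111.6 (SD, n = 10). Quadriceps of LFD mice had 109.1, 194.15 and 331.5, with a mean of 200.4 ± 62.6 (SD, n = 10). Here 7 of the 10 HFD mice lay above the highest LFD mouse, and 1 LFD mouse, again 148, lay within the HFD range.

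On the log2 scale, the difference between HFD and LFD mice was 1.25 with a standard error of 0.17 in the gastrocnemius, which is a fold change of 2.38. In the quadriceps it was 1.02 with a standard error of 0.17, or a fold change of 2.02. Whether the diet difference differed in size between the muscles was not tested. No tested probe set had a larger increase in the gastrocnemius. In the quadriceps 10 had one, *Ltf*, *Ngp*, *Camp*, *Lcn2*, *Hp*, *Wfdc21*, *Lep*, *Igkc*, *S100a9* and *S100a8*, of which several encode proteins of neutrophil granules. Their log2 differences reached 1.74, but none passed the test (limma, adjusted p from 0.101 to 0.998).

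Ordered by its mean, *BC048679* was highest in the quadriceps of HFD mice, next in the gastrocnemius of HFD mice, then in the quadriceps of LFD mice, and lowest in the gastrocnemius of LFD mice. The middle pair of this order overlapped widely. The gastrocnemius of HFD mice exceeded the quadriceps of LFD mice by a ratio of means of 1.36, and 5 of the 10 quadriceps of LFD mice lay above the lowest gastrocnemius of HFD mice. Within groups the mice differed considerably. The coefficient of variation was 20.2% in the gastrocnemius of HFD mice, 33.3% in the gastrocnemius of LFD mice, 27.8% in the quadriceps of HFD mice and 31.2% in the quadriceps of LFD mice.

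**Figure D1:**
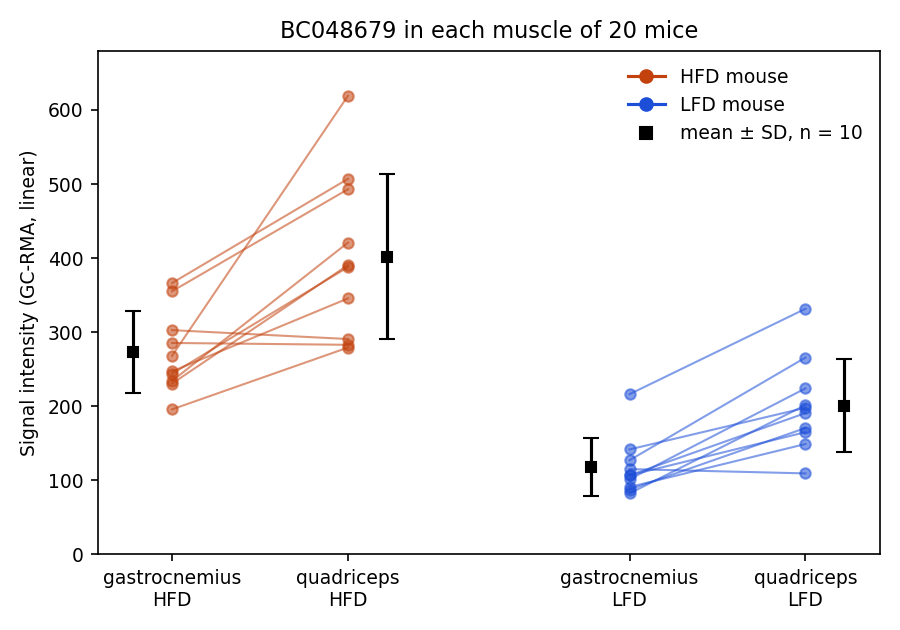
Signal intensity (linear, GC-RMA) of *BC048679* in the gastrocnemius and quadriceps of HFD mice and LFD mice; each line joins the muscles of 1 mouse, and squares with bars are means ± SD (n = 10). All HFD samples lie at 195.6 or higher, and the quadriceps lies above the gastrocnemius in 8 HFD mice and 9 LFD mice.

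The gastrocnemius was then compared with the quadriceps within each diet. Expression of *BC048679* was lower in the gastrocnemius under both diets. In HFD mice the log2 difference was -0.54 with a standard error of 0.14, a fold change of 0.690 (limma, adjusted p = 0.0261 over all tested probe sets). In LFD mice it was -0.77 with a standard error of 0.18, a fold change of 0.587 (limma, adjusted p = 0.0124). Both passed the criteria of a fold change over 1.3 and an FDR < 0.05. Without mouse 144, 145, 146, 150 or 157 the difference in HFD mice was not called (limma, adjusted p from 0.0539 to 0.0694), and the difference in LFD mice was called without each mouse in turn. Of all tested probe sets, 1.54% were called lower in the gastrocnemius in HFD mice and 1.1% in LFD mice. Whether the muscles differed more in LFD mice than in HFD mice was not tested.

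Single mice showed the same direction with few exceptions. Among HFD mice, the gastrocnemius was lower in 8 of 10, and the ratio of gastrocnemius to quadriceps ranged from 0.433 to 1.04. Mouse 145 had the lowest ratio, with 268 in gastrocnemius and 619.2 in quadriceps. Mouse 144 had 234 and 420.9, mouse 146 had 230.4 and 390.5, and mouse 157 had 243.7 and 387.8 in gastrocnemius and quadriceps. In these 4 mice the quadriceps stood far above the gastrocnemius. Mouse 158 (195.6 and 279.1), mouse 150 (246.9 and 345.5), mouse 149 (355.1 and 493) and mouse 152 (366.2 and 507) had ratios near 0.7. The exceptions were mouse 143, with 302.6 in gastrocnemius and 290.6 in quadriceps, and mouse 151, with 285.3 and 282.8. The muscles of these mice were thus nearly equal. The exact sign-flip permutation test within mice gave a two-sided p of 0.00781.

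Among LFD mice, the gastrocnemius was lower in 9 of 10, and the ratio ranged from 0.408 to 1.05. Mouse 159 had the lowest ratio, with 82.1 in gastrocnemius and 201.4 in quadriceps. Mouse 155 had 101.2 and 224, mouse 153 had 126.9 and 265.6, mouse 160 had 87.3 and 170.4, and mouse 154 had 106.4 and 190.6. Ratios were between 0.6 and 0.72 in mouse 156 (90.7 and 148.8), mouse 147 (106.5 and 164.8), mouse 148 (216.1 and 331.5) and mouse 142 (141.5 and 197.7). Mouse 148 was the highest LFD mouse in either muscle, although its ratio was like that of others. The exception was mouse 141, with 114.9 in gastrocnemius and 109.1 in quadriceps, the lowest quadriceps of all mice. The exact sign-flip permutation test gave a two-sided p of 0.00391. The groups still overlapped, since 6 of 10 gastrocnemius samples lay below the lowest quadriceps sample in each diet.

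Neutrophil markers moved with this comparison. The summed signal intensity of 12 such markers (*S100a8*, *S100a9*, *Ngp*, *Camp*, *Ltf*, *Lcn2* and others) was 56 to 64.4 in the gastrocnemius of HFD mice and 52.6 to 13991.3 in the quadriceps of HFD mice, with a median of 1307.75 in that quadriceps. It was 53.7 to 62.7 in the gastrocnemius of LFD mice and 54.6 to 2674.4 in the quadriceps of LFD mice, with a median of 60 in that quadriceps. Of the 6 markers that were tested, 3 were lower in the gastrocnemius in HFD mice and none passed in LFD mice (limma, FDR < 0.05, met in this direction by 3.3% and 2.53% of all tested probe sets in HFD and LFD mice). The markers were thus at a low level in all 20 gastrocnemius samples and high in part of the quadriceps samples. With the log2 of this sum as a covariate, the muscle difference of *BC048679* was -0.21 in HFD mice (limma, adjusted p = 0.542) and -0.58 in LFD mice (limma, adjusted p = 0.0950), and neither passed.

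Adipocyte markers differed as well. Of 10 tested, 2 were lower and 1 was higher in the gastrocnemius in HFD mice, and 4 were lower and 1 was higher in LFD mice (limma, FDR < 0.05). Of all tested probe sets, 3.3% were lower and 3.32% higher in HFD mice, and 2.53% were lower and 2.69% higher in LFD mice. The median log2 difference of the 10 markers was -0.69 in HFD mice and -0.31 in LFD mice. The sum over 14 markers on the array was 16887.1 to 22315.9 in the gastrocnemius and 13710.2 to 19688.7 in the quadriceps of HFD mice. It was 16102.7 to 18641.7 in the gastrocnemius and 13236.8 to 18680 in the quadriceps of LFD mice. The median of the sum was higher in the gastrocnemius, at 18460.4 against 16246.1 in HFD mice and 17339.7 against 14615.2 in LFD mice, so that the sum ran opposite to most of the markers that passed. With this sum as a covariate the difference of *BC048679* was -0.49 in HFD mice (limma, adjusted p = 0.107) and -0.53 in LFD mice (limma, adjusted p = 0.312). These marker sums also differed between the muscles. In whole muscle, fewer cells of a type and less RNA per cell cannot be told apart.

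**Figure D2:**
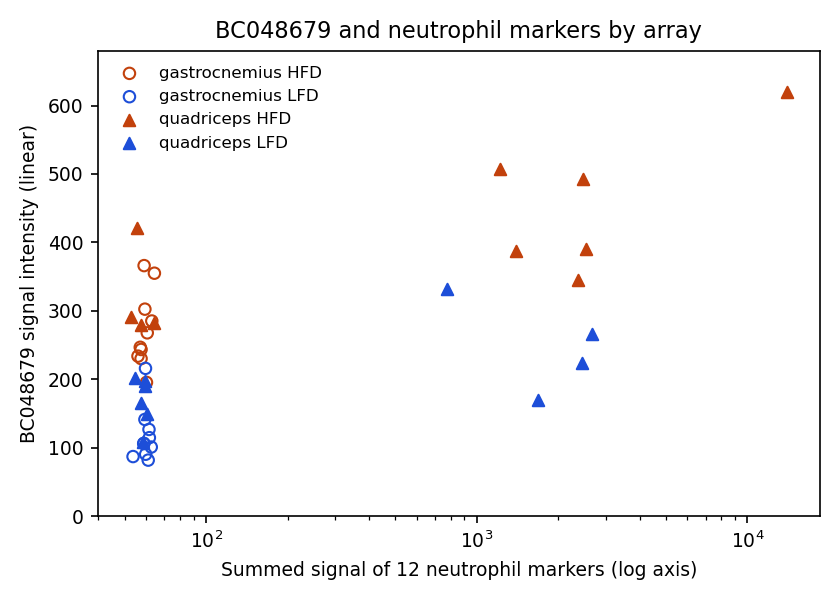
Signal intensity of *BC048679* (linear) against the summed signal intensity of 12 neutrophil markers (log axis) in each of the 40 arrays, with circles for the gastrocnemius and triangles for the quadriceps. All gastrocnemius samples lie at a sum of 64.4 or lower, and the quadriceps of mouse 145 has the highest value on both axes (13991.3 and 619.2).

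The diet difference was also read beside these markers. None of the 6 tested neutrophil markers and none of the 10 tested adipocyte markers passed in the comparison of HFD with LFD mice in either muscle (limma, FDR < 0.05), where 0.463% of all tested probe sets passed as higher and 0.216% as lower in gastrocnemius, and 0.139% and 0.0463% in quadriceps. With so few markers a count of 0 is near that background. At an unadjusted p under 0.05 there were 0 neutrophil and 1 adipocyte markers in gastrocnemius, and 1 and 3 in quadriceps. In the quadriceps these are 16.7% of the tested neutrophil and 30% of the tested adipocyte markers. Of all other tested probe sets, 8.95% had such a p in gastrocnemius and 5.67% in quadriceps. The median log2 difference of the neutrophil markers was -0.02 in gastrocnemius and 1.17 in quadriceps, and that of the adipocyte markers was 0.20 and 0.31. With the neutrophil sum as a covariate, the log2 difference of *BC048679* between HFD and LFD mice was 1.25 in gastrocnemius and 0.88 in quadriceps. With the adipocyte sum it was 1.32 in gastrocnemius and 1.11 in quadriceps. In the gastrocnemius the neutrophil sum spans only 53.7 to 64.4, with a median of 59.2 in HFD mice and 59.75 in LFD mice. This covariate could therefore hardly change the diet difference there, so that the unchanged value is no check on it.

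To find out whether a mouse with a high level in one muscle also has a high level in the other, the log2 signal intensities of the muscles were correlated over the mice of a diet. In HFD mice Pearson's r was 0.41 (permutation p = 0.241, adjusted p = 0.241 over the 2 diets) and Spearman's rho was 0.382 (permutation p = 0.281, adjusted p = 0.367). In LFD mice r was 0.578 (permutation p = 0.0864, adjusted p = 0.173) and rho was 0.321 (permutation p = 0.367, adjusted p = 0.367). Neither passed. Without the 2 mice farthest from the median, r was 0.35 in HFD mice (permutation p = 0.377) and 0.462 in LFD mice (permutation p = 0.251). The value in LFD mice rested on single animals, since r was 0.161 without mouse 148 and 0.776 without mouse 141 (permutation p = 0.0156).

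Other genes that responded to the diet were read beside *BC048679*. In the gastrocnemius 14 probe sets were called, 11 of them higher in HFD mice (0.17% of those tested) and 3 lower (0.0463%). In the quadriceps 4 were called, 3 of them higher (0.0463% of those tested) and 1 lower (0.0154%). *BC048679* is 1 of those called in each muscle, which its choice entails. *Plin5*, which encodes a coat protein of lipid droplets in oxidative tissues, rose in both muscles, by 0.76 in the gastrocnemius (limma, adjusted p = 0.000419) and 0.56 in the quadriceps (limma, adjusted p = 0.0387) on the log2 scale. *Ech1*, an auxiliary enzyme for the oxidation of unsaturated fatty acids, rose by 0.45 and 0.41 in gastrocnemius and quadriceps. Called higher in gastrocnemius samples without a call in the quadriceps were *Tm6sf1* (0.65), *Dhrs4* (0.64), *Slc66a2* (0.49), *Decr1* (0.44), *Plbd1* (0.43), *Ppp1r27* (0.42), 2310057M21Rik (0.40) and *Cd36* (0.38), and whether their change differed between the muscles was not tested. *Decr1*, the mitochondrial dienoyl-CoA reductase, had an FDR under 0.05 in the quadriceps as well, with a log2 difference of 0.378 that is just under the fold threshold. The same held for *Cd36*, with a log2 difference of 0.31 in the quadriceps (limma, adjusted p = 0.0163) that is under the fold threshold. Lower in the gastrocnemius of HFD mice were *Il12a* (-0.70), a subunit of interleukin 12, *Ccnk* (-0.49), encoding cyclin K, and *Mrtfa* (-0.43), a coactivator of serum response factor. *Mpp3* was lower in the quadriceps (-0.49). The quadriceps calls of *Plin5* and *Mpp3* were lost in most fits that left out a mouse. When each of the 20 mice was left out in turn, *Plin5* was called in the quadriceps in 6 of the 20 fits, *Mpp3* in 8 and *Ech1* in 19, its call being lost without mouse 145. None of these 3 genes was called in the quadriceps with array weights or when its 20 arrays were fitted alone. In the gastrocnemius *Plin5*, *Ech1*, *Decr1*, *Tm6sf1*, *Plbd1* and *Il12a* were called in all 20 such fits, *Slc66a2* in 17, 2310057M21Rik in 16, *Mrtfa* in 14, *Cd36* in 12, *Dhrs4* and *Ccnk* in 7 and *Ppp1r27* in 5.

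The 3 genes that came next to *BC048679* by size of increase did not pass the test in either muscle. In the gastrocnemius these were *Hp* (1.13), which encodes haptoglobin, *Csrp3* (0.93), the muscle LIM protein, and *Mybph* (0.82), the myosin binding protein H, with adjusted p values of 0.382, 0.440 and 0.176 (limma). In the quadriceps these were *Ctse* (0.94), encoding cathepsin E, *Tmem45b* (0.92) and a probe set without a symbol in the tables used (0.79), and none passed (limma, adjusted p of 0.998, 0.643 and 0.998).

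**Figure D3:**
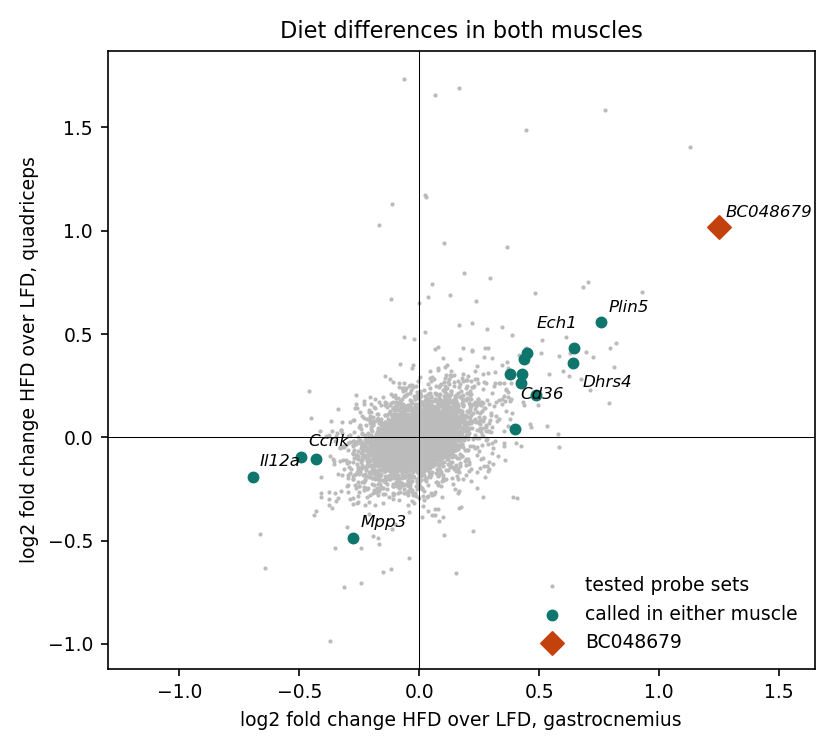
Log2 fold change of HFD over LFD mice in the gastrocnemius (horizontal) and in the quadriceps (vertical) for the 6479 tested probe sets, with the 14 other called genes in green and *BC048679* as a diamond. *BC048679* lies at 1.25 and 1.02, and *Plin5*, the next called gene by size of change, at 0.76 and 0.56.

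Levels of these genes show how the samples lie. *Decr1* had a signal intensity of 817.7 to 1080.1 (median 883.8) in the gastrocnemius of HFD mice and 548.6 to 810.6 (median 668.4) in that of LFD mice. In the quadriceps its signal intensity was 797.8 to 1148 (median 856.35) in HFD mice and 624.7 to 772.3 (median 699.9) in LFD mice. The diets thus did not overlap for *Decr1* in either muscle, as was the case for 0.0772% of the tested probe sets, with HFD mice higher, in gastrocnemius and 0.0309% in quadriceps. *Plin5* had 271.4 to 416.0 (median 367.6) in the gastrocnemius of HFD mice and 159.4 to 302.6 (median 207.9) in that of LFD mice. In the quadriceps *Plin5* had 222.6 to 534 (median 333.85) in HFD mice and 164 to 292.5 (median 241.4) in LFD mice, so that the diets overlapped in both muscles.

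Co-variation was measured with the diet and muscle differences removed. For each gene the group mean of the log2 signal intensity was subtracted from each array, and the deviations were correlated with those of *BC048679* over the 40 arrays. These r values are a description, since the arrays are pairs of muscles from 20 mice and share their normalization. The deviations of *BC048679* had a standard deviation of 0.39. The largest were 0.94 and 0.79 in the gastrocnemius and quadriceps of mouse 148 and 0.67 in the quadriceps of mouse 145, and the lowest was -0.82 in the quadriceps of mouse 141.

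The 14 other genes called for the diet had a median r of 0.462 to *BC048679*, against -0.021 over all 6478 other tested probe sets. Of these 14 genes, 9 had an r over 0.3, whereas 8.64% of all others did. An r over 0.5 was found for 6 of the 14 and for 1.3% of all others. The 10 genes higher in HFD mice had r values of 0.215 to 0.636. *Plin5* (0.636), *Decr1* (0.625), *Plbd1* (0.604), 2310057M21Rik (0.541), *Ech1* (0.534) and *Tm6sf1* (0.515) were at the upper end. They were followed by *Ppp1r27* (0.499), *Cd36* (0.426), the fatty acid translocase, *Slc66a2* (0.389) and *Dhrs4* (0.215). The 4 genes lower in HFD mice had r values below 0, *Mpp3* (-0.237), *Mrtfa* (-0.161), *Il12a* (-0.099) and *Ccnk* (-0.034). For *Plin5* r was 0.429 over the 20 gastrocnemius arrays and 0.763 over the 20 quadriceps arrays, and for *Decr1* it was 0.476 and 0.759 in gastrocnemius and quadriceps.

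Across all tested genes the highest r values belonged to genes of several cell compartments. *Wfs1*, which encodes wolframin of the endoplasmic reticulum, had an r of 0.746. *Cryab*, the small heat shock protein alpha-B crystallin, had 0.732, and *Slco3a1*, an organic anion transporter, had 0.711. Next were *Hadh* (0.706), the mitochondrial hydroxyacyl-CoA dehydrogenase, *H19* (0.686), an imprinted noncoding RNA, *Atpif1* (0.675), the inhibitor of the ATP synthase, and *Mdh1* (0.675), the cytosolic malate dehydrogenase. *Ldhb* (0.648), the lactate dehydrogenase subunit of oxidative tissues, *Acadl* (0.644), the long-chain acyl-CoA dehydrogenase, and *Calr* (0.642), the calcium-binding chaperone calreticulin, completed the 10 highest. Only *Acadl* of these genes had an FDR under 0.05 for the diet in both muscles, with a log2 difference of 0.33 in the gastrocnemius (limma, adjusted p = 0.000142) and 0.26 in the quadriceps (limma, adjusted p = 0.00829).

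The lowest r values were those of *Bcap29* (-0.775), which encodes a membrane protein of the endoplasmic reticulum, *Myadml2* (-0.668), a probe set without a symbol (-0.666), *C1qtnf4* (-0.661) and *Cisd2* (-0.658), an iron-sulfur protein of the endoplasmic reticulum and mitochondria. *Bcap29* itself varied little. Its mean was 545.4 ± 26.9 in the gastrocnemius of HFD mice and 576.8 ± 29.3 in that of LFD mice (SD, n = 10 each), and 508.9 ± 31.4 in the quadriceps of HFD mice and 514.0 ± 32.1 in that of LFD mice. *Wfs1*, at the other end, had 561.9 ± 58.5 in the gastrocnemius of HFD mice and 495.2 ± 63.2 in that of LFD mice, and 492.1 ± 98.1 in the quadriceps of HFD mice and 490.3 ± 49.5 in that of LFD mice (SD, n = 10 each). In the gastrocnemius of mouse 148, where the deviation of *BC048679* was 0.94, that of *Wfs1* was 0.36, that of *Plin5* 0.51, that of *Decr1* 0.28 and that of *Bcap29* -0.09. The quadriceps of mouse 145, at 0.67 for *BC048679*, had 0.53 for *Wfs1*, 0.68 for *Plin5*, 0.34 for *Decr1* and -0.17 for *Bcap29*. In the quadriceps of mouse 151, where *BC048679* was at -0.46, *Plin5* was at -0.50, *Decr1* at -0.19 and *Wfs1* at -0.23, with *Bcap29* at 0.14.

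**Figure D4:**
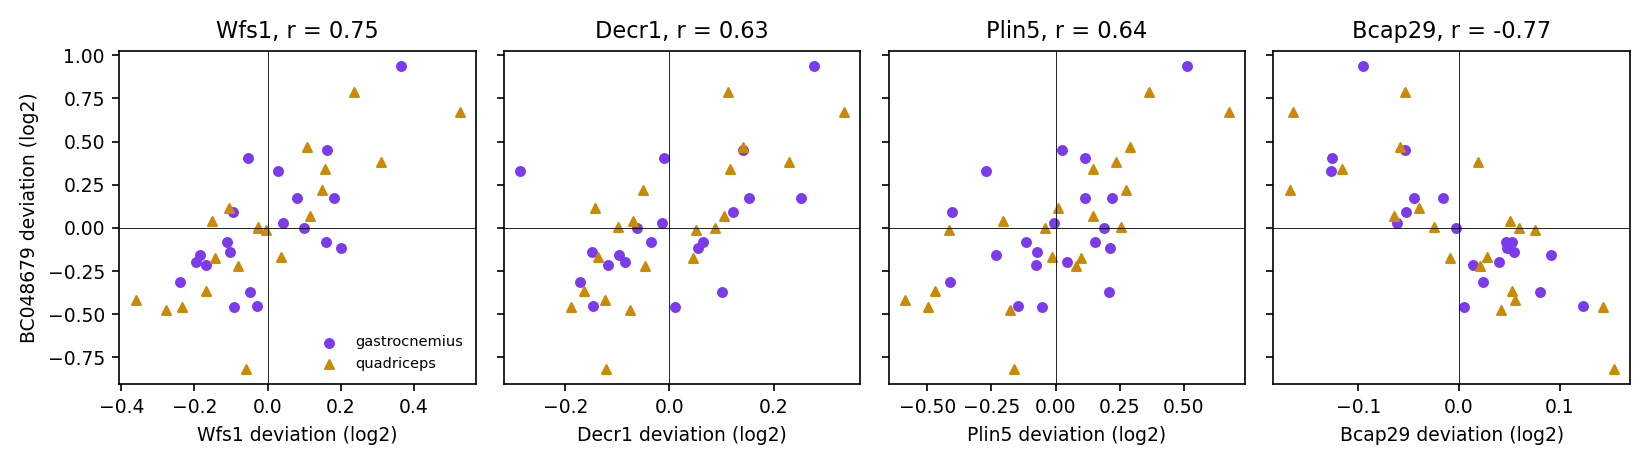
Deviation of *BC048679* from its group mean (log2) against the deviations of *Wfs1*, *Decr1*, *Plin5* and *Bcap29* (log2) in 40 arrays, with circles for the gastrocnemius and triangles for the quadriceps. The clouds rise for *Wfs1* (r = 0.746), *Decr1* (r = 0.625) and *Plin5* (r = 0.636) and fall for *Bcap29* (r = -0.775).

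Each muscle was also ranked on its own and then read in the other, over 20 arrays each. The 10 genes with the highest r in the quadriceps, which include *Mdh1* (0.843), *Hadh* (0.820), *Slco3a1* (0.817), *Wfs1* (0.805), *Atpif1* (0.785), *H19* (0.778) and *Plin5* (0.763), had r values of 0.320 to 0.655 in the gastrocnemius. Their median there was 0.457, against -0.011 over all other tested probe sets. In the opposite direction the relation was looser. The 10 genes with the highest r in the gastrocnemius, among them *Cryab* (0.769), *Ppp1r27* (0.690) and the monoacylglycerol lipase gene *Mgll*, had r values from -0.516 to 0.705 in the quadriceps, with a median of 0.181 against -0.025 over all others. *Cryab* had 0.705 in the quadriceps.

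Sums of several cell type marker lists co-varied with *BC048679* in the quadriceps. The log2 of the neutrophil sum had an r to *BC048679* of 0.303 over the 20 gastrocnemius arrays, 0.659 over the 20 quadriceps arrays and 0.508 over all 40. For 6 erythroid precursor markers, whose sum reached 412.3 in the quadriceps of HFD mice and 417.7 in that of LFD mice, r was -0.181 over the gastrocnemius arrays and 0.716 over the quadriceps arrays. Over the quadriceps arrays r was also 0.579 for the B cell sum, 0.549 for the cartilage sum, 0.514 for the skin and hair follicle sum and 0.434 for the macrophage sum, whereas over the gastrocnemius arrays these sums had 0.218, -0.063, -0.096 and 0.151. Of the 6 B cell markers 0 had a mean over 20, and of the 8 cartilage and 8 skin and hair follicle markers 1 each did. In the quadriceps the B cell sum spanned only 19.7 to 30, the skin and hair follicle sum 48.8 to 71.7 and the cartilage sum 57 to 203.5. The r values of the B cell and skin sums thus rest on signal near the floor, and presence of these cells was not tested. Over the gastrocnemius arrays the neutrophil sum spanned only 53.7 to 64.4 and the erythroid precursor sum 45 to 77.2. Their r values in that muscle rest on such low signal too. The adipocyte sum had an r of 0.061 over the gastrocnemius arrays and -0.389 over the quadriceps arrays, and the slow fiber sum had 0.102 and 0.471 in gastrocnemius and quadriceps. With the neutrophil sum removed, the partial r over 40 arrays was 0.644 for *Wfs1*, 0.688 for *Cryab*, 0.656 for *Slco3a1*, 0.523 for *Decr1*, 0.471 for *Plin5*, 0.337 for *Ech1*, 0.230 for *Cd36* and -0.694 for *Bcap29*. These values were smaller than the r values without this step but of the same sign.

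PPAR targets and enzymes of fatty acid oxidation were followed as a list. It was chosen with earlier results of these data known and holds the called genes *Plin5*, *Ech1*, *Decr1* and *Cd36*. Its counts, medians and r values may therefore be in part set by that choice. Of 29 genes on the array 24 were tested, and 14 rose in gastrocnemius and 6 in quadriceps of HFD mice (limma, FDR < 0.05), with none lower. By this criterion, which has no fold threshold, 0.463% of all tested probe sets were higher and 0.216% lower in the gastrocnemius, and 0.139% higher and 0.0463% lower in the quadriceps. The median log2 difference of the list was 0.27 in gastrocnemius and 0.22 in quadriceps, against -0.02 and -0.01 over all other tested probe sets. *Eci2*, an enoyl-CoA isomerase, rose by 0.21 in each muscle. *Hadha* (0.28) and *Acadm* (0.23), which encode the trifunctional protein alpha subunit and the medium-chain acyl-CoA dehydrogenase, rose in the gastrocnemius. In the quadriceps *Hadha* had 0.26 and *Acadm* 0.14, and neither passed there (limma, adjusted p of 0.101 and 0.258). Whether their change differed between the muscles was not tested. *Pdk4*, the kinase that shuts off pyruvate dehydrogenase, and *Ucp3*, the muscle uncoupling protein, are well-known PPAR targets. Their log2 differences were -0.03 and -0.07 for *Pdk4* and -0.11 and -0.28 for *Ucp3* in gastrocnemius and quadriceps, and none passed.

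This list varied with *BC048679* between mice of a group. Its median r was 0.452, 17 of 24 genes had an r over 0.3 and 10 had an r over 0.5, against 8.64% and 1.3% of all other tested probe sets. In the gastrocnemius alone the median r of the list was 0.280, and in the quadriceps alone it was 0.542. *Eci2* (0.572), *Pdk4* (0.546) and *Hadhb* (0.526) were among the higher values, *Hadha* (0.443) and *Acadm* (0.319) lay lower, and *Ucp3* (-0.083) was the lowest of the list. *Pdk4* thus co-varied with *BC048679* within groups while its diet difference was near 0, whereas *Cd36* had a diet difference of 0.38 in the gastrocnemius and a lower r of 0.426.

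**Figure D5:**
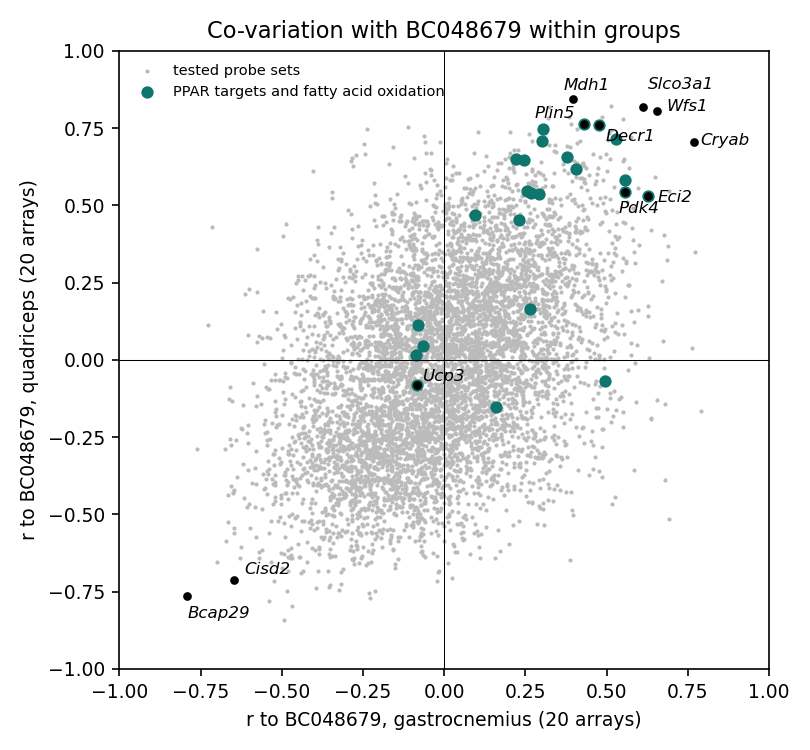
Pearson's r of each tested gene to *BC048679*, from deviations from the group means, over 20 gastrocnemius arrays (horizontal) and 20 quadriceps arrays (vertical), with the 24 tested PPAR targets and fatty acid oxidation genes in green. *Plin5* lies at 0.429 and 0.763, *Decr1* at 0.476 and 0.759, *Cryab* at 0.769 and 0.705, and *Bcap29* at -0.791 and -0.764.

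In 5 other lists no tested gene passed for the diet. This held at an FDR < 0.05 in both muscles for 13 genes of fatty acid and triglyceride synthesis, 2 of cholesterol synthesis, 11 of the clock, 15 of the glucocorticoid and fasting response, and 7 of insulin signaling (limma). In lists of this size a count of 0 is near the background, since 0.463% of all tested probe sets passed as higher and 0.216% as lower in gastrocnemius, and 0.139% and 0.0463% in quadriceps. At an unadjusted p under 0.05 there were 2, 1, 0, 1 and 0 genes of these lists in gastrocnemius, and 5, 0, 0, 0 and 0 in quadriceps. Of all other tested probe sets, 8.95% had such a p in gastrocnemius and 5.67% in quadriceps. For fatty acid and triglyceride synthesis the share was 15.4% in gastrocnemius and 38.5% in quadriceps, which is above that background. Their median r to *BC048679* was 0.060 for fatty acid and triglyceride synthesis, 0.137 for cholesterol synthesis, -0.164 for the clock, 0.005 for the glucocorticoid and fasting response and -0.089 for insulin signaling. Single genes lay away from these medians. *Dbp*, a clock output transcription factor, had an r of -0.512, and *Dgat2*, which makes triglycerides, had 0.481. The log2 differences of *Dgat2* between HFD and LFD mice were 0.51 in gastrocnemius and 0.41 in quadriceps. Neither passed (limma, adjusted p of 0.189 and 0.706). *Fasn*, the fatty acid synthase gene, had an r of -0.131 and log2 differences between HFD and LFD mice of -0.37 in gastrocnemius and -0.98 in quadriceps, neither of which passed.

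Genes beside *BC048679* on chromosome 7 were read in the order of the RefSeq annotation. Of the 3 nearest genes on either side, only *Ap3b2*, a subunit of the neuronal adaptor complex, was on the array, and its mean signal intensity of 3.86 was too low for the test. The nearest tested neighbors were *Cpeb1*, 4 genes before it, and *Fsd2*, 4 genes after it in this order. *Cpeb1* had log2 differences between HFD and LFD mice of -0.08 in gastrocnemius and -0.04 in quadriceps with an r of -0.262, and *Fsd2* had -0.06 and -0.15 in gastrocnemius and quadriceps with an r of -0.300. Neither passed in a muscle, and both had r values below 0. *Homer2*, 6 genes after it, had an r of 0.542 with log2 differences of 0.23 and -0.04 in gastrocnemius and quadriceps that did not pass. The other tested genes nearer to *BC048679* than *Tm6sf1* did not pass in either muscle. *Btbd1* had log2 differences of 0.08 and -0.03 in gastrocnemius and quadriceps with an r of -0.219. *Alpk3* had 0.10 and 0.07 with an r of 0.341, and *Sec11a* had 0.05 and -0.01 with an r of 0.028. *Tm6sf1*, 17 genes after *BC048679*, was called in the gastrocnemius, where its signal intensity was 121.1 ± 17.1 in HFD mice and 77.7 ± 13.5 in LFD mice (SD, n = 10 each). In the quadriceps *Tm6sf1* had 124.1 ± 25.0 in HFD mice and 91.9 ± 16.9 in LFD mice, and did not pass (limma, adjusted p = 0.130).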

How the data were processed

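Per the methods of the study, the authors assigned the array probes to Entrez genes, quantile-normalized the arrays and summarized each gene with GC-RMA. The deposited values are these signal intensities on a linear scale, for which no read depth exists. GC-RMA removes background that depends on base composition, so fold changes of dim probe sets depend on it. Of the rows, 64 controls were left out. Symbols came from RefSeq (15752 probe sets) or the platform annotation alone (28), and 695 had none. Names and gene order came from GRCm38.p6.

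The log2 of the intensity was modelled with limma 3.58.1 (R 4.3.3). Probe sets with a mean over 20 were tested, and a call needed an FDR (Benjamini-Hochberg) under 0.05 together with a fold change over 1.3. The muscles were compared within each diet (20 arrays), as in the methods of the study, and the diets within each muscle in 1 fit of all 40 arrays. The fits were tested on simulated data. Correlations used 100000 permutations in Python 3.11.15 with scipy 1.17.1.

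*BC048679* and the gene lists were chosen with earlier results of these data known. Named were the 10 highest and 5 lowest r values, up to 10 called genes per direction and muscle, the 3 next by increase, the 3 nearest genes on either side and up to 3 genes of each list. *Acadm*, *Hadha*, *Hadhb*, *Pdk4*, *Ucp3*, *Cpeb1*, *Fsd2*, *Homer2*, *Btbd1*, *Alpk3* and *Sec11a* were named after their values were seen, as were marker genes and *Mgll*. Mouse numbers pair the muscles of 1 animal. Deviations from the group means had a median correlation of -0.069 within a mouse against -0.0059 between mice in HFD mice, and 0.39 against -0.053 in LFD mice. Alternatives were signal filters, repeated quantile normalization, a pseudocount, variance models, array weights, a replicate block, leaving out each mouse and, added after seeing the data, marker sums as covariates.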

Additional observations from a re-analysis of the deposited data

Results flagged for a closer look

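Single far samples were looked for in 8 genes (*BC048679*, *Plin5*, *Decr1*, *Ech1*, *Cd36*, *Tm6sf1*, *Wfs1* and *Bcap29*), in 4 groups each. Among these 32 groups of 10 samples, 1 held a sample far from the others. It was the gastrocnemius of LFD mouse 148, whose *BC048679* signal intensity of 216.1 lay above the next value of 141.5 by a gap that takes up 0.557 of the range of the group, more than Dixon's criterion allows for 10 samples. Chance alone picks out about 1 in 20 groups. The quadriceps of the same mouse was also the highest of its group (331.5), and without this mouse the log2 difference of *BC048679* between the muscles of LFD mice was -0.78.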

How the results depend on the processing

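The muscle difference of *BC048679* kept its direction under all alternatives that were run. When each mouse was left out in turn, the log2 difference ranged from -0.60 to -0.46 in HFD mice and from -0.86 to -0.71 in LFD mice, with the call lost in HFD mice without mouse 144, 145, 146, 150 or 157. It was no longer called with the neutrophil sum as a covariate (-0.21 in HFD mice and -0.58 in LFD mice) and with the adipocyte sum (-0.49 and -0.53 in HFD and LFD mice). With the mouse as a replicate block the adjusted p was 0.0111 in HFD mice and 0.00134 in LFD mice (limma), and 0.0263 and 0.000627 in HFD and LFD mice with a random block, so that the block changed no call of *BC048679*. The diet difference of *BC048679* without any one mouse was 1.20 to 1.35 in the gastrocnemius and 0.93 to 1.10 in the quadriceps. With array weights 46 probe sets were called for the diet in the gastrocnemius, against 14 without, and 2 in the quadriceps, against 4. When the 20 quadriceps arrays were fitted alone, 1 probe set was called there. Leaving out a mouse gave 9 to 19 calls in the gastrocnemius, with 9 without mouse 154, and 1 to 10 in the quadriceps. It gave 191 to 236 calls between the muscles in HFD mice and 127 to 216 in LFD mice. Of the 10 genes with the highest r, 6 remained with Spearman's rho, 1 in the gastrocnemius alone, 6 in the quadriceps alone, 6 with the neutrophil sum removed and 6 to 10 without any one mouse. The correlation between the muscles of LFD mice was 0.729 on linear signal intensities (permutation p = 0.0260) and 0.161 to 0.776 without any one mouse, and that of HFD mice was 0.227 to 0.543. The cause of these changes was not tested.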
